A study of Mus musculus with 29 samples.

Results

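The genes described here are 45 members of the brain's antioxidant defence, taken by symbol from a fixed list, and all 45 were found among the 36172 gene rows of the table. They fall into 10 roles: glutathione synthesis and cystine import (4 genes), glutathione recycling and breakdown (3), glutathione peroxidases (4), glutathione transferases (10), catalase and superoxide dismutases (4), peroxiredoxins and sulfiredoxin (7), thioredoxins and their reductases (4), the regulators NRF2 and KEAP1 with the NRF2 target NQO1 (3), haem breakdown (3) and metallothioneins (3). Glutathione is a small thiol that peroxidases and transferases spend on peroxides and reactive electrophiles, and that glutathione reductase returns to its reduced form with NADPH. Thioredoxin and the peroxiredoxins form a parallel route, and NRF2, held down by KEAP1, is the transcription factor that drives many of these genes. Astrocytes are known for a large store of glutathione and for supplying its precursors to neurons, and microglia for making superoxide.

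Ribosome-bound RNA was obtained by translating ribosome affinity purification (TRAP), in which EGFP-tagged ribosomes are pulled from brain homogenate with an antibody against GFP. Aldh1l1-NuTRAP mice (Aldh1l1-Cre/Ert2+; NuTRAP+) tag ribosomes in astrocytes, since the inducible Cre follows Aldh1l1, and Cx3cr1-NuTRAP mice (Cx3cr1-Cre/Ert2+; NuTRAP+) tag them in microglia, since it follows Cx3cr1, a gene that other brain macrophages also express. All of the mice carried the NuTRAP reporter and Cre/Ert2 and had received tamoxifen on 5 consecutive days at about 3 months of age, so that no untreated or Cre-free group entered. Tissue of the Cx3cr1 line was collected 3–4 weeks after tamoxifen, an interval chosen to let labelled blood monocytes turn over, and the interval of the Aldh1l1 RNA libraries is not given in the sources used here. The 29 libraries were the positive (bead-bound) and negative (unbound) fractions of Aldh1l1-NuTRAP mice 290, 293 and 294, the positive, negative and input (cleared homogenate) fractions of Cx3cr1-NuTRAP mice 155, 192, 194, 209, 210 and 277, and whole tissue (slices, by their titles) of those mice except 155, and each library came from the brain of 1 mouse. Levels are given as CPM (the raw count of a gene scaled by its library's total count), and differences as log2 values with their standard error (SE) from a fit of all genes tested, in which a gene passed at an adjusted p under 0.05.

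Total counts ranged from 8782235 to 26857866 per library, except for the whole tissue of mouse 210 with 4260949. The 10 astrocyte markers were all higher, and the 10 microglial and 10 neuronal markers all lower, in the Aldh1l1 positive fraction than in its negative fraction. The 10 microglial markers were all higher in the Cx3cr1 positive fraction than in the input, with summed levels of 3338 to 7994 CPM against 403 to 444 CPM, but neuronal markers still summed to 6218 to 9122 CPM there, against 8485 to 8889 CPM in the input. The fraction labelled as microglial thus also held RNA of other cells. In these bulk fractions, fewer cells of a type and less RNA per cell cannot be told apart.

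3 libraries stood apart from their groups in a way that reaches these members, many of which are short genes. In both fractions of mouse 290, the shortest of 4 equal groups of genes by exon length was higher than in mice 293 and 294 by a median of 0.47 (positive) and 0.38 (negative) on the log2 scale, and the longest group was lower, with medians of -0.37 and -0.25. In the negative fraction of mouse 155 the shortest group was 0.34 above and the longest group stood at -0.21, relative to the other mice, whereas the shortest group in the remaining 26 libraries lay between -0.29 and 0.16. Of the 12 members with under 1500 bases of merged exons, 11 were higher in mouse 290 than in mice 293 and 294 in each fraction, with a median log2 difference of 0.80 in the positive fraction. Of the 33 longer members, 21 in the positive and 24 in the negative fraction were also higher in mouse 290, with medians of 0.32 and 0.24. The calls that end or appear without these mice are given beside the results, and the part that exon length played in them was not tested.

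**Figure D1:**
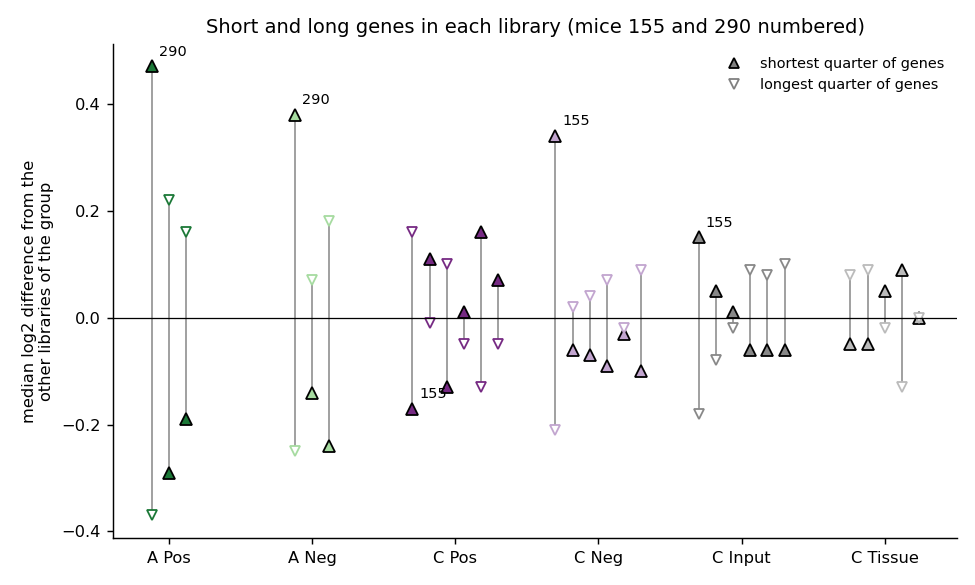
Median log2 difference of each library from the other libraries of its group, for the shortest (filled upward triangles) and the longest (open downward triangles) of 4 equal groups of genes by exon length, with groups on the x axis. Both fractions of mouse 290 (0.47 and 0.38) and the negative fraction of mouse 155 (0.34) have the highest values for short genes.

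The antioxidant genes made up a larger share of the astrocyte pulldown than of any other fraction. Together the 45 members summed to 10690 to 18986 CPM in the 3 Aldh1l1 positive fractions, against 3472 to 5008 CPM in the negative fractions of the same mice and 3118 to 4505 CPM in the 6 Cx3cr1 positive fractions. The lowest astrocyte positive fraction was above the highest library of every other group. A few genes carry much of this sum. Mt3, Mt1, Prdx6, Gstm1 and Mt2 had the highest mean levels in the astrocyte positive fraction, at 2928, 1601, 1550, 1383.5 and 1103 CPM. In the fit, 27 of the 45 members were higher in the positive than in the negative fraction, where 26.8% of the 13324 genes tested were higher, and 2 were lower, where 24.8% were lower. Their median log2 difference was 1.05, beside 0.04 for all genes tested, and 12 members were more than 5-fold higher.

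**Figure D2:**
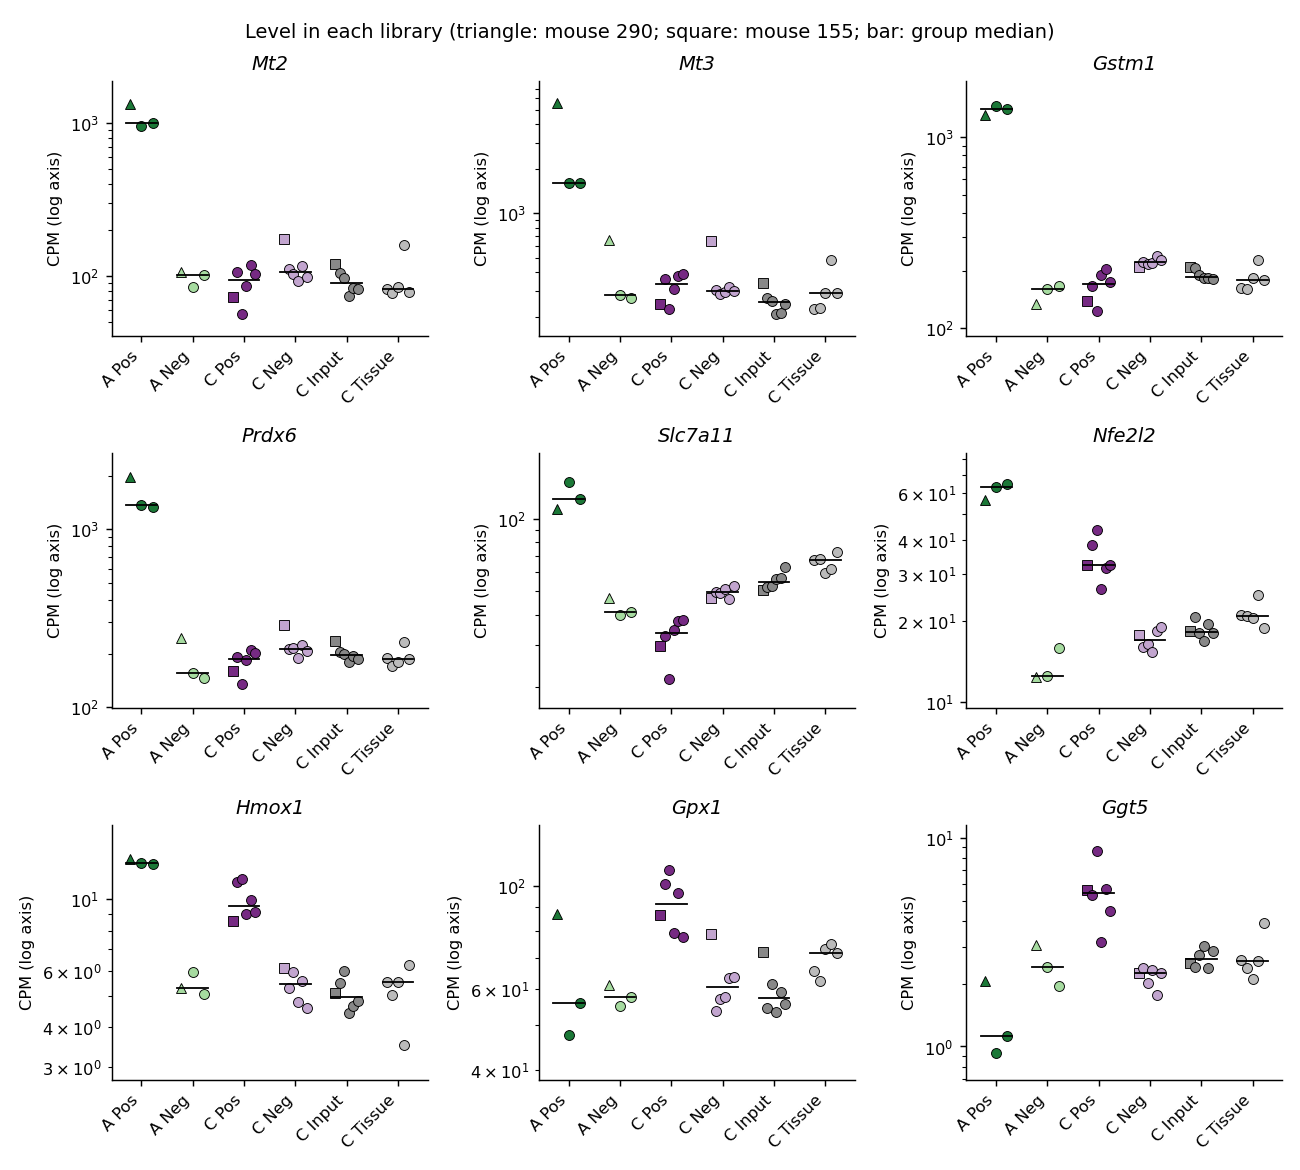
Level of 9 members in each library, in CPM on a log axis, with the 6 groups on the x axis (A, Aldh1l1 line; C, Cx3cr1 line) and bars at the group medians. Mt2, Mt3, Gstm1, Prdx6 and Slc7a11 were highest in the astrocyte positive fraction, Ggt5 and Gpx1 had their highest medians in the microglial positive fraction, and Nfe2l2 and Hmox1 were raised in both.

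Metallothioneins, small cysteine-rich proteins that bind zinc and copper, had the highest median log2 difference of the 10 roles, at 3.43, though Gstm1, Prdx6, Gstk1 and Mgst1 changed by more than Mt3. Their genes lie side by side on chromosome 8 of GRCm38, with Mt3 at chr8:94152607-94154148, Mt2 at chr8:94172618-94173567 and Mt1 at chr8:94179089-94180327, all on the plus strand. Mt2 stood at 1344, 957 and 1009 CPM in the positive fractions of mice 290, 293 and 294, and at 106, 84.5 and 102 CPM in their negative fractions. The fractions did not overlap, and the fitted difference was 3.85 ± 0.22 (SE) on the log2 scale or 14.4-fold, with an adjusted p of 4.1e-05 by edgeR's quasi-likelihood test. Mt1 stood at 2304, 1252 and 1249 CPM in the positive and at 284, 139.8 and 141 CPM in the negative fractions, a log2 difference of 3.43 ± 0.41 (adjusted p = 0.00051). Mt3, the form known from brain, had the highest mean level per kilobase of exon in the astrocyte positive fraction, at 2747 ± 2144 CPM per kilobase (SD, n = 3), beside 1876 ± 358 for Mt2 and 1285 ± 488 for Mt1. The order per kilobase depends on the annotated merged exons, 1246 bases for Mt1, 588 for Mt2 and 1066 for Mt3, which need not match the transcripts present. In CPM, Mt1 was above Mt2 in every positive fraction. The wide spread of Mt3 came from mouse 290, with 5567 CPM in its positive fraction against 1612 and 1606 CPM in mice 293 and 294, and in those mice Mt2 was above Mt3 per kilobase (1627 and 1715.5 against 1512 and 1506). The negative fraction of mouse 290 was also the highest, at 663 CPM against 279.8 and 268 CPM, so that the log2 difference was 3.21 ± 0.64 over all mice and 2.86 without mouse 290, a 9.24-fold and a 7.28-fold difference. In the Cx3cr1 line none of the 3 passed between the positive fraction and the input or the negative fraction, with log2 differences from -0.33 to 0.33. Against the input, Mt3 had an unadjusted p of 0.037 and passed by DESeq2, without mouse 155 and without mouse 194. The counts of Mt1 and Mt2, which are alike in sequence, may share reads.

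The bases before the start of these genes are shown because the metal response element, a short sequence bound by the zinc-sensing factor MTF1, and the antioxidant response element, bound by NRF2, are the known regulatory sequences of this gene set. Both strands of the 250 bases before each RefSeq start (GRCm38.p6) were searched for the metal response element core, TGCACNC or TGCGCNC, and for the antioxidant response element core, TGACNNNGC, and matches are in capitals. No match of one core overlapped a match of the other in the sequences shown.
Mt1 (chr8:94178839-94179088, plus strand, metal core): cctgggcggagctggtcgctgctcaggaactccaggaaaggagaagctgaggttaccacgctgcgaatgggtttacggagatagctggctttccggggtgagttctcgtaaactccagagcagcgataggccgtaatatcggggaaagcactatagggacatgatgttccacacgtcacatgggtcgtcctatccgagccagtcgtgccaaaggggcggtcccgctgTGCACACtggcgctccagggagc
Mt2 (chr8:94172368-94172617, plus strand, metal and antioxidant cores): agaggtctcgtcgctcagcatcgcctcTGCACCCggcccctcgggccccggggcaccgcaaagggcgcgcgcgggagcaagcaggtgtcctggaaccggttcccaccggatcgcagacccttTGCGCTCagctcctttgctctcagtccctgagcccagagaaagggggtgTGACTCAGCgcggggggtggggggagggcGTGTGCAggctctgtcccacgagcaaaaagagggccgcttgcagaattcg
Mt3 (chr8:94152357-94152606, plus strand, no match): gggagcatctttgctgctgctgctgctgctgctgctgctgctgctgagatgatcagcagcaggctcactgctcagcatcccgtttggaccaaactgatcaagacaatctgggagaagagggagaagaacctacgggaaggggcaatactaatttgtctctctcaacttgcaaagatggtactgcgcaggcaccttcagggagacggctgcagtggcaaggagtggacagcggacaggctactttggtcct
Prdx1 (chr4:116685349-116685598, plus strand, antioxidant core): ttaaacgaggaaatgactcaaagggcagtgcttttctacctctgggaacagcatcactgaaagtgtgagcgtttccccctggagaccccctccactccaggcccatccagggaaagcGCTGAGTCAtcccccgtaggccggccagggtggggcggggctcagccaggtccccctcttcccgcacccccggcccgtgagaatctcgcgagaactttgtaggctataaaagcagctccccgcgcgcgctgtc
Nfe2l2 (chr2:75704664-75704913, minus strand, antioxidant core): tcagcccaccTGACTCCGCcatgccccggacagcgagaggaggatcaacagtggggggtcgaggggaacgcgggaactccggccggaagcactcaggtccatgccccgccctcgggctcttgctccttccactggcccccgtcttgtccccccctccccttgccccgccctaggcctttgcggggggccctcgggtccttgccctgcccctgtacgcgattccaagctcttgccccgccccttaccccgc
Gstk1 (chr6:42245685-42245934, plus strand, metal core): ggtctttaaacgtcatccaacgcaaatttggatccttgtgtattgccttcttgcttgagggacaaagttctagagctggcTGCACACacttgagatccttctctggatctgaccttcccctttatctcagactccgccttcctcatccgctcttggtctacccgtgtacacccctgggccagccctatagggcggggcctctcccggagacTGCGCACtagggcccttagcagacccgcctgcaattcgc
Mt2 held 3 metal response element cores and 1 antioxidant response element core in this window, and Mt1 held 1 metal response element core. Gstk1 held 2 metal response element cores, and Prdx1 and Nfe2l2 held 1 antioxidant response element core each. Among the 37 members with a promoter in the table, 9 held the antioxidant core and 10 held the metal core, where 11.5% and 23.8% of all 27025 genes with a promoter did. A match describes these letters in this window and is not a measured binding site.

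Of the 10 glutathione transferases, which join glutathione to electrophiles, 7 were higher in the astrocyte pulldown, 1 was lower and 2 did not pass, with a median log2 difference of 2.13 beside 0.04 for all genes, of which 26.8% were higher. Gstm1, on chromosome 3 at 108012250 to 108017973, stood at 1307, 1442 and 1401 CPM in the positive fractions of mice 290, 293 and 294 and at 134, 159.9 and 167 CPM in the negative fractions. Its log2 difference was 3.52 ± 0.15 (11.4-fold, adjusted p = 3.4e-05), and the fractions did not overlap. Gstk1, the mitochondrial and peroxisomal kappa class enzyme, rose by 3.27 ± 0.28 (adjusted p = 0.00013), from 8.98, 6.79 and 7.18 CPM to 77.6, 44.1 and 51.7 CPM. Mgst1, a membrane-bound enzyme, rose by 3.22 ± 0.23 (adjusted p = 7.8e-05), from 6.81, 5.45 and 6.74 CPM to 56.1, 36.4 and 46.6 CPM.

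None of these 3 transferases overlapped between fractions, and mouse 290 had the highest positive fraction of Gstk1 and Mgst1 but the lowest of Gstm1. Gstm5 stood at 772, 473 and 454 CPM in the positive and at 136, 101 and 94.1 CPM in the negative fractions of mice 290, 293 and 294 (2.71 ± 0.29, 6.54-fold, adjusted p = 0.00030). Gstt1, of the theta class, stood at 39.6, 37.1 and 48.2 CPM against 10.4, 8.44 and 8.52 CPM (2.54 ± 0.19, 5.80-fold, adjusted p = 8.4e-05). These 2 did not overlap either. Gsta4, an alpha class enzyme known for conjugating lipid aldehydes, stood at 234, 101 and 113 CPM against 94.6, 39.6 and 39.2 CPM (1.72 ± 0.48, adjusted p = 0.020). Gstt2 stood at 11.0, 4.00 and 5.06 CPM against 3.23, 2.45 and 2.55 CPM (1.64 ± 0.43, adjusted p = 0.016). Mgst3, another membrane-bound enzyme, ran the other way, at 36.5, 21.4 and 25.4 CPM in the positive against 72.6, 70.6 and 73.6 CPM in the negative fractions (log2 difference -1.04 ± 0.22, adjusted p = 0.0067). The calls of Gsta4 and Mgst3 did not hold without mouse 293 or without mouse 294, and that of Gstt2 did not hold without mouse 294. Gstp1 (-0.02 ± 0.35) and Gstm7 (-0.05 ± 0.16) did not pass. Reads of the closely related mu class genes, and of Gstp1 and its near copy, could have been split between copies in the authors' counting.

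Peroxiredoxins remove peroxides with electrons from thioredoxin or, for PRDX6, from glutathione. Prdx6, on chromosome 1 at 161240112 to 161251166, stood at 1957, 1371 and 1324 CPM in the positive fractions of mice 290, 293 and 294 and at 244, 156 and 147 CPM in the negative fractions, a log2 difference of 3.43 ± 0.29 (10.8-fold, adjusted p = 0.00013). Prdx1 followed with 629, 297 and 347 CPM against 166, 110.5 and 109 CPM (2.07 ± 0.34, adjusted p = 0.0021). The mitochondrial Prdx3 (0.89 ± 0.22, adjusted p = 0.012) and the endoplasmic reticulum enzyme Prdx4 (0.87 ± 0.28, adjusted p = 0.036) were higher by less, and neither call held without mouse 293 or without mouse 294. Sulfiredoxin, Srxn1, which repairs overoxidised peroxiredoxins, stood at 77.7 to 88.7 CPM in the positive and 113 to 115 CPM in the negative fractions, and its log2 difference of -0.08 ± 0.13 did not pass. Srxn1 did not overlap between fractions in CPM, and under scaling by total counts, which moved the median of all genes by -0.35 in this comparison, its difference was -0.42 and passed (adjusted p = 0.035).

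Of the superoxide dismutases and catalase, 2 of 4 passed. Extracellular superoxide dismutase, Sod3, rose by 2.58 ± 0.20 (5.99-fold, adjusted p = 0.00010), from 14.5, 18.2 and 17.8 CPM to 59.5, 88.5 and 90.8 CPM. Catalase, Cat, the peroxisomal enzyme, rose by 2.30 ± 0.21 (adjusted p = 0.00017), from 42.3, 48.7 and 49.4 CPM to 130.3, 200.04 and 213 CPM. The cytosolic Sod1 stood at 714, 302 and 311 CPM in the positive and at 422, 204 and 187 CPM in the negative fractions, higher within each of the 3 mice, yet the groups overlapped because of mouse 290 and the log2 difference of 1.05 ± 0.46 did not pass (adjusted p = 0.090). With the mouse as replicate block, the fit that sets each fraction against the other fraction of the same animal, the difference was 1.03 with an adjusted p of 6.3e-06.

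7 further members behaved in this way. Prdx2 (block adjusted p = 1.8e-05), Prdx5 (0.00033), Gclc (0.00083), Txn1 (0.0016), Sod2 (0.0043), Txnrd2 (0.013) and Gpx1 (0.018) passed with the replicate block and were higher in 3 of 3 mice after TMM scaling, whereas their adjusted p-values without it ran from 0.052 to 0.24. Their log2 differences with the block were modest, from 0.43 for Gpx1 to 0.97 for Prdx2. In CPM, Gpx1 was lower in the positive fraction of mice 293 and 294, Sod2 in that of mouse 294 and Txn1 in that of mouse 293. With the block 35 members were higher and 2 lower, where 37.0% and 33.8% of all genes were, beside 26.8% and 24.8% without it. Of the 8 genes that the block added, 6, all except Sod2 and Gpx1, also passed without mouse 290.

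Glutathione synthesis begins with cystine import by xCT, encoded by Slc7a11, and with glutamate-cysteine ligase, whose catalytic and modifier subunits are Gclc and Gclm. Slc7a11 stood at 109.6, 142 and 121 CPM in the positive fractions and at 46.9, 39.96 and 41.1 CPM in the negative fractions of mice 290, 293 and 294 (1.89 ± 0.17, adjusted p = 0.00015). Gclm rose by 1.43 ± 0.22 (adjusted p = 0.0016), from 21.1, 32.99 and 33.1 CPM to 48.3, 70.1 and 67.4 CPM. The catalytic Gclc differed by 0.58 ± 0.31 and glutathione synthetase, Gss, by 0.28 ± 0.21, neither past the threshold. In recycling and breakdown, glutathione reductase, Gsr, was 0.60 ± 0.16 higher (adjusted p = 0.017, not held without mouse 293 or without mouse 294), and the gamma-glutamyltransferase relative Ggt7 was lower, at 45.3, 55.0 and 54.4 CPM against 118, 131 and 131 CPM (-0.95 ± 0.14, adjusted p = 0.0013). Ggt7 was the 1 member left lower without mouse 293 or without mouse 294.

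Of the 4 glutathione peroxidases, 2 passed. Gpx8, a peroxidase of the endoplasmic reticulum, went from 4.85, 4.71 and 5.09 CPM in the negative to 33.8, 21.5 and 22.8 CPM in the positive fractions of mice 290, 293 and 294 (2.76 ± 0.24, 6.76-fold, adjusted p = 0.00014). Gpx4, which reduces lipid peroxides, was higher by 1.05 ± 0.31 (adjusted p = 0.023), a call that did not hold without mouse 293 or without mouse 294. The extracellular Gpx3 stood at 14.4 to 18.4 CPM in the positive and 21.0 to 26.6 CPM in the negative fractions, and its log2 difference of -0.22 ± 0.18 did not pass, though under scaling by total counts it did (-0.56, adjusted p = 0.031). Of the thioredoxins, the mitochondrial Txn2 stood at 331, 226 and 224 CPM against 119, 109.7 and 108 CPM (1.57 ± 0.21, adjusted p = 0.00080), and thioredoxin reductase 1, Txnrd1, was 0.51 ± 0.17 higher (adjusted p = 0.040, not held without mouse 293 or without mouse 294).

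Nfe2l2, which encodes NRF2, was among the members past 5-fold. It stood at 56.2, 63.0 and 64.7 CPM in the positive and at 12.4, 12.5 and 15.9 CPM in the negative fractions (2.52 ± 0.17, 5.72-fold, adjusted p = 5.4e-05). Its target Nqo1, a quinone reductase, rose by 2.19 ± 0.22 (adjusted p = 0.00025), from 5.01, 4.09 and 6.22 CPM to 19.8, 16.4 and 18.7 CPM. Keap1 stood at 61.0 to 72.0 CPM in the positive and 60.1 to 88.8 CPM in the negative fractions, and its log2 difference of 0.11 ± 0.19 did not pass. Of the haem enzymes, inducible haem oxygenase, Hmox1, stood at 13.3, 13.03 and 12.9 CPM against 5.29, 5.93 and 5.09 CPM (1.61 ± 0.18, adjusted p = 0.00039). Biliverdin reductase B, Blvrb, stood at 30.1, 16.9 and 17.6 CPM against 7.71, 8.47 and 7.50 CPM (1.79 ± 0.27, adjusted p = 0.0015). The constitutive Hmox2 (-0.19 ± 0.28) did not pass.

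Markers of several other cell types moved with these results. The 6 choroid plexus markers were all higher in the astrocyte positive fraction, with summed levels of 2928 to 3386 CPM against 493.5 to 648 CPM in the negative fraction. Of 6 meningeal fibroblast markers 3 were higher and 3 lower, and of 6 oligodendrocyte precursor markers 2 were higher and 4 lower. Of 6 pericyte and smooth muscle markers tested 2 were higher and 1 lower, and 9 of 10 oligodendrocyte markers were lower (median log2 difference -2.79). The part of these cell types in the members' differences was not tested. The 6 border-associated macrophage markers summed to 1.90 to 3.87 CPM in the positive fractions, against 9.84 to 12.5 CPM in the negative fractions, and the 10 microglial markers to 66.9 to 142 CPM, against 367 to 571 CPM in the negative fractions. The part of these cells in the values of Hmox1 and Blvrb was not tested.

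**Figure D3:**
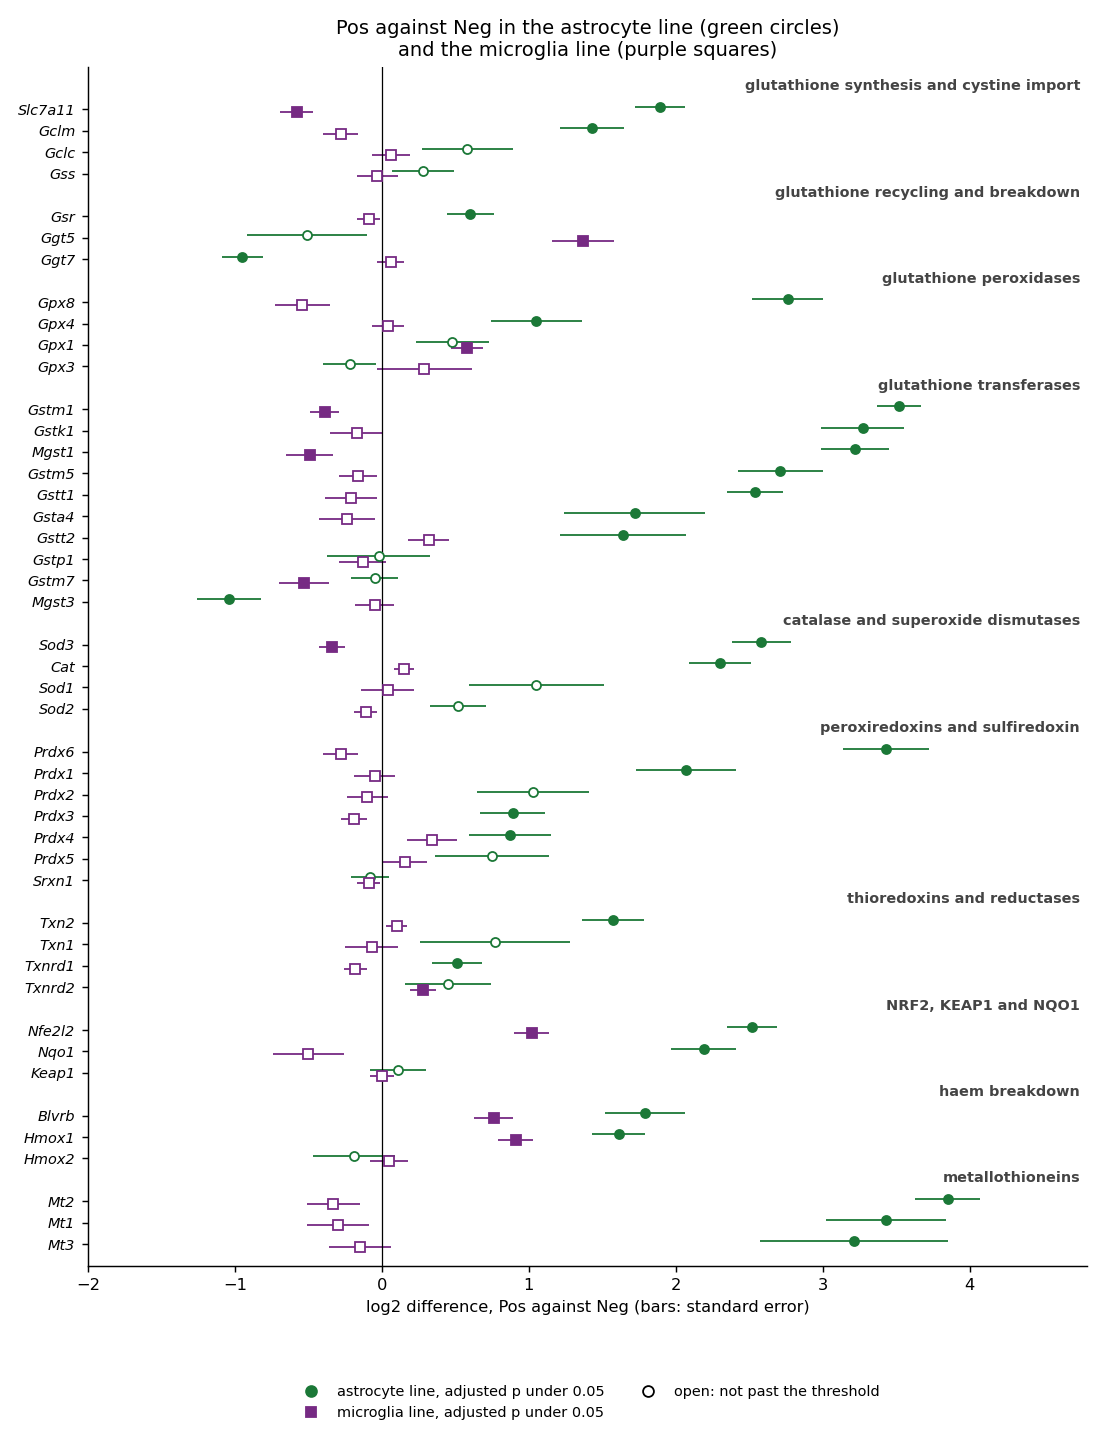
Log2 difference between the positive and the negative fraction for all 45 members, ordered by role, in the Aldh1l1 line (green circles) and the Cx3cr1 line (purple squares), with bars for the standard error and filled symbols for an adjusted p under 0.05. The astrocyte line has 27 members higher and 2 lower, and the microglia line has 6 higher and 5 lower.

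In the microglial pulldown fewer members moved and by less. Between the Cx3cr1 positive fraction and the input, 12 members were higher, where 23.3% of the 13840 genes tested were higher, and 4 were lower, where 25.6% were lower. The share of members higher, 26.7%, was close to that background, and the median log2 difference of the members was 0.11, beside 0.00 for all genes. Against the negative fraction, 6 members were higher and 5 lower, with backgrounds of 12.8% and 11.6% of 13777 genes and a median of -0.09. The 2 comparisons share the positive fractions. No member reached a 5-fold difference in either comparison. Per kilobase of exon, Mt3 had the highest mean level in the microglial positive fraction, at 297 ± 66.1 CPM per kilobase (SD, n = 6), followed by Gpx4 (156 ± 22.2) and Mt2 (154 ± 39.1), whose means differed by less than their SD. This order, too, depends on the annotated merged exons. Without mouse 155, Gstp1, Cat, Prdx1, Txn1 and Mt3 were also higher than in the input, and Sod3 lost its call.

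Ggt5, a gamma-glutamyl enzyme that cleaves the glutathione-linked leukotriene C4, had the largest difference. It stood at 3.16 (lowest), 5.46 (median) and 8.62 (highest) CPM in the positive fractions, at 2.37, 2.63 and 3.03 CPM in the input and at 1.76, 2.24 and 2.38 CPM in the negative fractions. The positive fractions did not overlap with the other 2 groups, and the log2 difference was 1.06 ± 0.21 against the input (2.09-fold, adjusted p = 0.00078) and 1.37 ± 0.21 against the negative fraction (2.58-fold, adjusted p = 0.00029). In the astrocyte line Ggt5 stood at 2.06, 0.929 and 1.12 CPM in the positive and 3.07, 2.41 and 1.95 CPM in the negative fractions of mice 290, 293 and 294.

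Hmox1, Blvrb and Nfe2l2 were higher here as well. Hmox1 stood at 8.57, 9.56 and 11.6 CPM (lowest, median and highest) in the positive fractions against 4.43, 4.96 and 5.98 CPM in the input (0.99 ± 0.12, 1.98-fold, adjusted p = 1.4e-05). Nfe2l2 stood at 26.3, 32.3 and 43.4 CPM against 16.8, 18.2 and 20.7 CPM (0.89 ± 0.11, adjusted p = 2.2e-05). Blvrb stood at 12.96, 14.04 and 15.5 CPM against 6.32, 8.69 and 11.5 CPM (0.75 ± 0.13, adjusted p = 0.00032). All 3 were higher in 6 of 6 mice and did not overlap with the input or the negative fraction, and against the negative fraction their log2 differences were 0.91 ± 0.12, 1.02 ± 0.12 and 0.76 ± 0.13.

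Gpx1, the cytosolic and mitochondrial glutathione peroxidase, stood at 77.5, 91.5 and 109 CPM in the positive fractions against 53.6, 57.3 and 71.9 CPM in the input (0.64 ± 0.10, adjusted p = 0.00012), higher in 6 of 6 mice. Against the negative fraction it was 0.58 ± 0.11 higher (adjusted p = 0.0017), with an overlap that came from the 78.6 CPM of mouse 155. Txnrd2, the mitochondrial thioredoxin reductase, was 0.43 ± 0.08 higher than in the input in 6 of 6 mice (adjusted p = 0.00069), and 0.28 ± 0.09 higher than in the negative fraction, where the adjusted p was 0.040 without and 0.093 with the replicate block and the call also ended without mouse 192, 194, 210 or 277. Prdx4 (0.60 ± 0.14), Prdx5 (0.52 ± 0.11) and Txn2 (0.31 ± 0.07) were higher than in the input and did not pass against the negative fraction, where their log2 differences were 0.34 ± 0.17, 0.16 ± 0.15 and 0.10 ± 0.07. Without both of these fractions of mouse 155, these 3 and Hmox2 were also higher than in the negative fraction. The count of members higher then rose from 6 to 10, where 15.0% of all genes were higher, beside 12.8% with all mice.

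Sod1 (0.41 ± 0.14), Gpx4 (0.31 ± 0.10) and Hmox2 (0.29 ± 0.10) were higher than in the input by small steps and lost the call with the replicate block, where the adjusted p was 0.076, 0.058 and 0.080. Each of them also lost the call when single mice were left out, Sod1 without mouse 192, 209, 210 or 277, Gpx4 without mouse 209, 210 or 277, and Hmox2 without mouse 194, 209, 210 or 277. Gpx3 was higher than in the input in 6 of 6 mice, with 69.8 CPM in the positive fraction of mouse 210 and 22.9 to 32.1 CPM in the other 5, and passed with the replicate block (adjusted p = 0.0044, against 0.21 without it) and without mouse 210.

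Of the 4 synthesis and import genes, Slc7a11 and Gclm were lower than in the input, whereas Gclc (-0.12 ± 0.11) and Gss (0.15 ± 0.13) did not pass. Slc7a11 stood at 21.6, 33.6 and 37.9 CPM (lowest, median and highest) in the positive fractions against 50.5, 54.5 and 62.8 CPM in the input and 46.3, 49.4 and 52.5 CPM in the negative fractions. The groups did not overlap, and the log2 difference was -0.76 ± 0.11 against the input (adjusted p = 0.00010) and -0.58 ± 0.11 against the negative fraction (adjusted p = 0.0016). Gclm stood at 21.9, 27.7 and 34.6 CPM against 39.0, 43.0 and 48.9 CPM in the input (-0.62 ± 0.11, adjusted p = 0.00037), and its difference of -0.28 ± 0.12 from the negative fraction did not pass. Txnrd1 was 0.32 below the input on the log2 scale (-0.32 ± 0.06, adjusted p = 0.00059) in 6 of 6 mice, and Sod3 was lower than both, by -0.27 ± 0.10 and -0.34 ± 0.09, the first held, of the alternatives tried, under scaling by total counts and without mouse 209 or mouse 210, and not under the others (adjusted p = 0.071 with the replicate block).

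Gstm7 (-0.53 ± 0.17), Mgst1 (-0.49 ± 0.16) and Gstm1 (-0.39 ± 0.10) were lower than in the negative fraction and did not pass against the input. Without mouse 192, none of these 3 and of Sod3 passed, and 1 member, Slc7a11, was left lower, where 4.12% of all genes were lower. Without mouse 155, Gstm7 and Mgst1 lost the call and Txnrd1 became lower. Without mouse 194, Sod3 and Mgst1 lost the call and 3 lower members were left, where 6.28% of all genes were lower. Without mouse 277, Gstm7, Sod3 and Mgst1 lost it and 2 were left, where 6.27% were lower. Mgst1 also lost it without mouse 209 and with no filter on low counts, and Gstm7 without mouse 210, where Gpx8 became lower. Markers of other cell types moved in both comparisons. Against the negative fraction, 6 of 10 astrocyte markers (median log2 difference -0.39) and 9 of 10 oligodendrocyte markers (-0.75) were lower. So were 6 of 6 oligodendrocyte precursor markers (-0.66), and 2 of 8 endothelial markers were higher. From the input to the positive fraction 6 of 10 astrocyte markers fell (median log2 difference -0.42, sums of 5018 to 5424 CPM in the input and 3042 to 4815 CPM in the positive fraction), as did 9 of 10 oligodendrocyte markers (-0.68), 6 of 6 oligodendrocyte precursor markers (-0.72), 4 of 6 meningeal fibroblast markers (-0.59) and 3 of 6 choroid plexus markers (-0.41). Of the 8 endothelial markers, 3 were higher (median 0.17, highest 0.98). The part of these cell types in the members' differences was not tested.

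**Figure D4:**
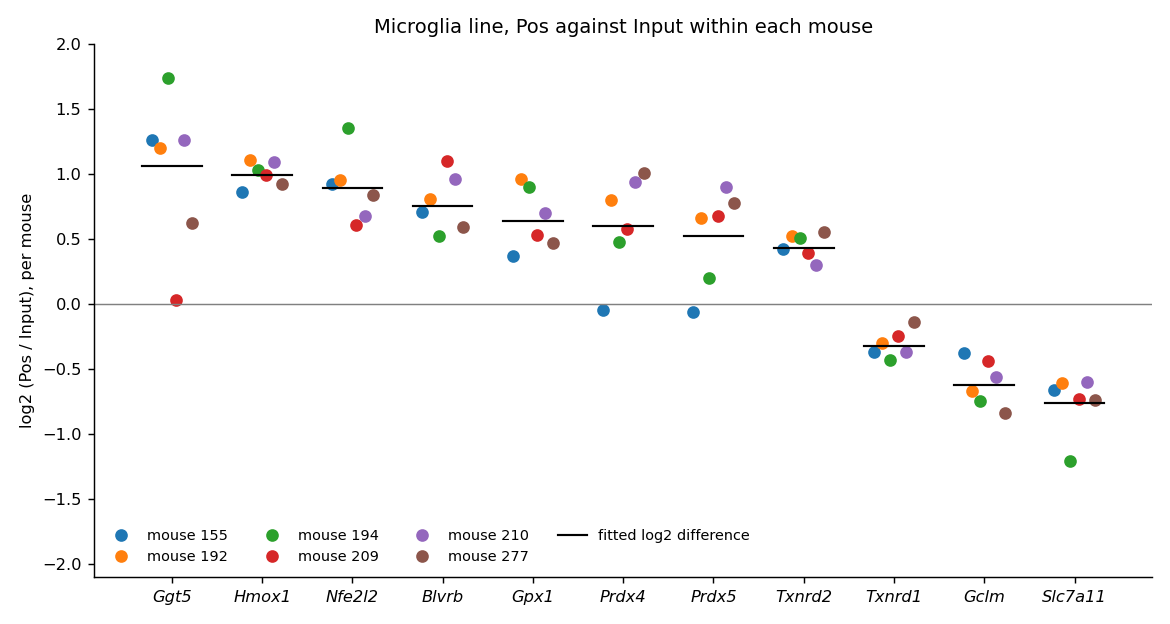
Log2 ratio of the positive fraction to the input within each of the 6 Cx3cr1-NuTRAP mice for 11 members (y axis), with a horizontal line at the fitted log2 difference. Hmox1, Nfe2l2, Blvrb, Gpx1 and Txnrd2 are above 0 in every mouse, Slc7a11, Gclm and Txnrd1 are below 0 in every mouse, and mouse 155 is the lowest for Gpx1, Prdx4 and Prdx5.

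The positive fraction of mouse 194 had the highest microglial markers, at 7994 CPM against a median of 4570 CPM, and the lowest astrocyte, oligodendrocyte and neuronal sums of its group. The same library was the highest for Ggt5 (8.62 CPM), Nfe2l2 (43.4 CPM), Gpx1 (109 CPM), Hmox1 (11.6 CPM) and Blvrb (15.5 CPM) and the lowest for Slc7a11 (21.6 CPM) and Gclm (21.9 CPM). Other members called higher than the input did not follow: this library was the lowest for Prdx4 (17.6 CPM), Prdx5 (229.8 CPM), Sod1 (165 CPM) and Gpx4 (222.8 CPM). Without mouse 194 the differences from the input were 0.92 for Ggt5, 0.82 for Nfe2l2, 0.62 for Gpx1, 1.01 for Hmox1, 0.84 for Blvrb and -0.65 for Slc7a11, all still past the threshold. The 6 border-associated macrophage markers were all higher in the positive fraction too, with sums of 67.3 to 211 CPM against 10.1 to 16.0 CPM in the input, and a share of Hmox1 or Blvrb RNA from such cells was not tested.

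The direct comparison of the pulldowns gave 31 members higher and 3 lower in the astrocyte than in the microglial positive fraction, where 30.6% of the 13679 genes tested were higher and 33.1% were lower. The median log2 difference of the members was 1.08, beside -0.08 for all genes. All 6 choroid plexus markers were higher too (median 2.26), and all 10 neuronal markers were lower (-1.47). Of 10 oligodendrocyte markers, 9 were lower and 1 higher (-1.46), and the part of these cell types was not tested. The largest differences were those of Mt2 (3.93 ± 0.21, 15.2-fold), Mt1 (3.64 ± 0.25), Mt3 (3.54 ± 0.37), Prdx6 (3.43 ± 0.17), Gstm1 (3.37 ± 0.15) and Gpx8 (3.03 ± 0.25), followed by Gstk1 (2.99 ± 0.24), Mgst1 (2.89 ± 0.22), Gstm5 (2.65 ± 0.21) and Sod3 (2.45 ± 0.15). These 10 were more than 5-fold higher, and none overlapped between the pulldowns. In the 6 microglial positive fractions Mt2 stood at 56.6 to 118 CPM, Mt1 at 102 to 204 CPM and Mt3 at 224 to 388 CPM. Prdx6 stood there at 136 to 209.9 CPM, Gstm1 at 124 to 205 CPM and Gpx8 at 2.48 to 5.39 CPM. Slc7a11 was 4.78-fold higher (2.26 ± 0.16), with 109.6 CPM or more in every astrocyte and 37.9 CPM or less in every microglial library. All 4 genes of catalase and the superoxide dismutases were higher, with Cat at 1.78 ± 0.14, Sod1 at 1.25 ± 0.28 and Sod2 at 0.66 ± 0.12.

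Ggt5 (-1.71 ± 0.39, 3.28-fold), Ggt7 (-0.99 ± 0.16) and Mgst3 (-0.97 ± 0.23) were the members lower in the astrocyte pulldown. Of these, Ggt5 alone passed within the Cx3cr1 line, and Mgst3 and Ggt7 differed from the input there by 0.22 ± 0.14 and 0.05 ± 0.09. Txn1 passed at 0.91 ± 0.32 with all mice and was 0.17 without mouse 290 (adjusted p = 0.40). Without that mouse Gpx1 (-0.54) and Hmox2 (-0.47) became lower in the astrocyte pulldown, and Gclc became higher. That made 5 lower members in all, where 31.1% of all genes were lower. The lines share no mice, and the interval after tamoxifen is not given in the sources used here for the Aldh1l1 RNA, so this comparison cannot tell cell type and line apart.

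The difference between the lines in the step from negative to positive fraction was also tested as an interaction, which sets each pulldown against its own unbound RNA. This takes out what both fractions of a line share. Cell type and line cannot be told apart in it either, since each line tags its own cell type. The interaction gave 28 members higher in the astrocyte line, where 25.6% of 13986 genes were higher, and 3 lower, where 29.9% were lower, with a median of 0.98 beside -0.11 for all genes. Mt2 (4.14 ± 0.32, adjusted p = 4.9e-09), Gstm1 (3.87 ± 0.17, adjusted p = 5.9e-12), Mt1 (3.70 ± 0.44), Prdx6 (3.68 ± 0.27), Mgst1 (3.68 ± 0.29) and Gstk1 (3.41 ± 0.33) led. Genes that rose in both pulldowns also differed in size between them: Nfe2l2 by 1.45 ± 0.20 (adjusted p = 8.5e-06), Blvrb by 0.98 ± 0.27 (adjusted p = 0.0045) and Hmox1 by 0.65 ± 0.20 (adjusted p = 0.010), each larger in the astrocyte line. From negative to positive fraction, neuronal markers had a median log2 difference of -1.56 in the astrocyte line and -0.06 in the Cx3cr1 line. In the interaction, all 6 choroid plexus markers were higher (median 2.91), and 9 of 10 oligodendrocyte markers were lower and 1 higher (median -2.0). The part of RNA of other cells in the size of the members' steps was not tested. Sod1 (0.98 ± 0.45) did not pass with all mice and passed without mouse 290. Scaling by total counts ended the calls of Hmox1, Gsr, Prdx2, Txnrd1 and Sod2 and left 23 members higher, where 18.6% of all genes were higher and 40.9% lower. Ggt5 (-1.93 ± 0.43, adjusted p = 0.00098), Ggt7 (-1.06 ± 0.17) and Mgst3 (-1.03 ± 0.25) were lower. Gpx1, which passed in the microglial line without a block and in the astrocyte line with it, did not pass as a difference between lines in this test (-0.14 ± 0.24, adjusted p = 0.63).

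Between the input and whole tissue of the Cx3cr1 line no member was higher and 12 were lower by edgeR, where 16.3% of the 13610 genes tested were higher and 14.2% were lower. The input is the supernatant of centrifuged homogenate, and the tissue was not fractionated. Whether the tissue slices came from the same hemisphere is not given in the sources used here, and the 6 choroid plexus markers summed to a median of 949 CPM in the input and 407 CPM in tissue. DESeq2 also called 0 members higher, and at an unadjusted p under 0.05 there was 1, Sod3 (0.29 ± 0.12), which passed with Gstm1 when mouse 210 was left out. Gpx3 differed most, at 13.7, 21.3 and 44.2 CPM (lowest, median and highest) in the input and at 32.8, 47.7 and 58.5 CPM in tissue (-0.97 ± 0.25, adjusted p = 0.013). Mouse 210 went the other way for Gpx3, with 44.2 CPM in its input and 32.8 CPM in its tissue. Gstm7 followed (-0.54 ± 0.08, adjusted p = 0.00038), and its groups did not overlap. The other 10 were smaller steps, from -0.36 ± 0.09 for Gsta4 to -0.14 ± 0.05 for Sod2, and include the 3 synthesis genes Slc7a11 (-0.27 ± 0.07), Gclm (-0.31 ± 0.09) and Gss (-0.28 ± 0.08). The call of Gpx3 was lost without mouse 194 or without mouse 209, and Gclm (adjusted p = 0.082), Mgst1 (0.068), Txnrd1 (0.068) and Sod2 (0.0985) lost theirs with the replicate block. The count of lower members was 6, 4, 5 and 6 without mice 192, 194, 209 and 277 respectively, where 10.7%, 8.75%, 9.29% and 10.4% of all genes were lower. Gstm7 passed under every alternative tried. Without mouse 155, Gpx4 and Prdx4 were also lower. The 8 endothelial markers were all lower in the input as well, with a median of -1.33, as were 5 of 6 pericyte and smooth muscle markers tested (-0.98) and 9 of 10 oligodendrocyte markers (-0.37). Of the 10 neuronal markers, 5 were higher and 2 lower. The part of these cell types in the members' differences was not tested.

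Of 85 other genes of these pathways, in 4 lists set beside the members, 72 were tested in the astrocyte line, with 38 higher (52.8%) and 8 lower (11.1%) in the positive fraction, beside 26.8% and 24.8% of all genes. Of 31 further glutathione enzymes, 20 were tested in the astrocyte line, with 13 higher (65.0%) and 3 lower and a median log2 difference of 1.06. Gstt3, a theta class transferase (3.29 ± 0.32), Oplah, the 5-oxoprolinase that returns glutamate from glutathione breakdown (2.35 ± 0.18), and Gpx7 (2.00 ± 0.34) rose most, and Chac1, which degrades glutathione (-2.20 ± 0.31), fell most, ahead of Anpep (-1.17 ± 0.30) and the exporter Abcc1 (-1.14 ± 0.32). Of 21 thioredoxin fold and methionine sulfoxide genes, 11 were higher (52.4%) and 2 lower, led by the selenium-binding Selenbp1 (3.25 ± 0.24), nucleoredoxin, Nxn (2.47 ± 0.17), and Msrb2 (1.47 ± 0.42), with Msra (-0.84 ± 0.25) and Msrb3 (-0.60 ± 0.19) lower.

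NADPH supply, the source of reducing power for both systems, had 8 of 12 genes higher (66.7%) and 1 lower in the astrocyte line. The mitochondrial isocitrate dehydrogenase Idh2 (2.74 ± 0.16), Mthfd1 (1.65 ± 0.19) and Idh1 (1.60 ± 0.17) rose most, and the malic enzyme Me3 (-0.51 ± 0.15) fell. Of 19 other NRF2 targets and regulators, 6 were higher and 2 lower, with a median of 0.33, and the 31.6% that were higher lie near the 26.8% of all genes. Abhd4 (3.05 ± 0.20), Cbr3 (2.60 ± 0.36) and Nqo2 (2.24 ± 0.17) rose most, and the ferritin chains Fth1 (-1.63 ± 0.30) and Ftl1 (-0.80 ± 0.24), which store iron and have many processed copies, fell.

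In the microglial pulldown, 17 of the 71 further genes tested were higher and 10 lower than in the input, with a median of 0.05, and the 23.9% that were higher lie near the 23.3% of all genes. Txnip, an inhibitor of thioredoxin, was 1.64 ± 0.14 higher than in the input (adjusted p = 5.2e-07) and 1.70 ± 0.14 higher than in the negative fraction, and Idh2 was 0.68 ± 0.09 and 0.54 ± 0.08 higher. Bach1, a repressor of Hmox1, was 0.44 ± 0.09 and 0.60 ± 0.10 higher, and Blvra, the second biliverdin reductase, was 0.53 ± 0.11 higher than in the input. Sesn3, a sestrin (-1.20 ± 0.15), Anpep (-0.73 ± 0.16), and Fth1 (-0.46 ± 0.18) were lower than in the input. Of the same 71 genes, 5 were higher and 5 lower than in the negative fraction, 7.04% each beside 12.8% and 11.6% of all genes.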

How the data were processed

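TRAP RNA-seq libraries of mouse brain were grouped by line, fraction and animal as the labels give them. Per the labels, the authors used Strand NGS and mm10. The deposited raw values are expected counts per gene, of which 82.4% of the values above 0 were not whole (tolerance 1e-06). The authors' deposited log2 values, made from them with DESeq normalisation, were not used. The expected counts were rounded, 14057 rows at 0 in every library were left out, and genes with over 20 counts in every library of at least 1 group compared were tested. Library totals ran from 4260949 to 26857866 counts. This depth limits members of a few CPM, and p-values measure the spread between animals. Tests were two-sided edgeR 4.0.16 quasi-likelihood tests (limma 3.58.1, R 4.3.3) with TMM scaling and Benjamini-Hochberg adjustment over all genes tested at a threshold of 0.05, tested on simulated data. CPM, sums and figures were made in Python 3.11.15 with pandas 2.3.3, numpy 2.4.6 and matplotlib 3.10.9. Alternatives were DESeq2 1.42.0, its size factors, total counts, other filters, 1 fit of all groups, each mouse left out and the mouse as a replicate block.

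The fractions of a mouse come from the same animal, so numbers pair the samples. The deviations of same-numbered libraries from their group means correlated above 0.1 in 3 of 3 Aldh1l1 pairs (0.44 to 0.64), in 3 of 6 pairs of positive fraction and input (-0.23 to 0.21), in 3 of 6 pairs of positive and negative fraction (-0.29 to 0.24) and in 0 of 5 pairs of input and tissue (-0.14 to 0.07). Values with the block stand in the text where they change a call. Members and lists were chosen with earlier results of these data known. The text gives full values for up to 20 members per comparison, in order of the size of the change among those past the threshold and changed alike in every mouse, for members past 5-fold and for 1 or more per role, and names up to 3 genes per related list and direction. Promoters are RefSeq (GRCm38.p6), and exon lengths are merged exons of GENCODE vM21, found for 12519 of the 13324 genes tested in the Aldh1l1 line. Input and tissue of the Aldh1l1 line were not analysed here.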

Additional observations from a re-analysis of the deposited data

Results flagged for a closer look

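In 36 of the 180 sets formed by 1 member in 1 Cx3cr1 group, a single library lay far from the other mice of its group by Dixon's criterion, where chance gives about 1 in 20, or 9 sets. Of these, 19 belong to the negative fraction of mouse 155. In that library the levels in CPM were above those of the other 5 mice for Gpx4 (343), Gsta4 (87.1), Gstm5 (166), Gstk1 (14.6), Gstp1 (227), Mgst3 (82.95), Sod1 (376), Prdx1 (210.2), Prdx2 (321), Prdx5 (395), Prdx6 (291), Txn1 (114), Hmox2 (138), Mt1 (344), Mt2 (175) and Mt3 (645). They were below them for Gclc (38.4), Ggt7 (112) and Cat (51.1). The input of mouse 155 was highest for Gsta4 (58.4), Gstk1 (10.5), Prdx2 (239) and Prdx5 (260.2) CPM, and its positive fraction was lowest for Hmox2 (71.9) CPM.

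The whole tissue of mouse 210, the library with the fewest counts, lay apart for 6 members, with Prdx4 (24.9), Prdx6 (233), Nqo1 (13.8), Mt1 (241), Mt2 (159) and Mt3 (481) CPM, and the tissue of mouse 209 for Prdx2 (198) and Prdx3 (70.5) CPM. Single values lay apart for Gpx3 in the positive fraction of mouse 210 (69.8 CPM), Mgst1 in its negative fraction (14.1 CPM), Txnrd1 in the tissue of mouse 194 (99.7 CPM) and Ggt5 in the tissue of mouse 277 (3.90 CPM).

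The step from the negative to the positive fraction differed between the lines for 31 members by the interaction test of edgeR, on the log2 scale and as the astrocyte line minus the microglia line. It was larger in the astrocyte line for Mt2 (4.14), Gstm1 (3.87), Mt1 (3.70), Mgst1 (3.68), Prdx6 (3.68), Gstk1 (3.41), Mt3 (3.32), Gpx8 (3.26), Sod3 (2.88), Gstm5 (2.83), Gstt1 (2.70), Nqo1 (2.64), Slc7a11 (2.43), Cat (2.10), Prdx1 (2.09), Gsta4 (1.92), Gclm (1.67), Nfe2l2 (1.45), Txn2 (1.42), Gstt2 (1.28), Prdx2 (1.09), Prdx3 (1.04), Gpx4 (0.98), Blvrb (0.98), Hmox1 (0.65), Txnrd1 (0.65), Gsr (0.65) and Sod2 (0.58). It was smaller for Mgst3 (-1.03), Ggt7 (-1.06) and Ggt5 (-1.93). Of the 31, Gsr, Hmox1, Prdx2, Txnrd1 and Sod2 did not pass under scaling by total counts.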

How the results depend on the processing

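Across the alternatives, 133 called differences of members were computed 1803 times in all, of which 1672 stayed past the threshold, 131 did not and 0 changed sign. 97 of the 133 stayed past it under every alternative run, 21 of 29 for the astrocyte positive against negative fraction and 1 of 12 for input against tissue. Leaving out 1 mouse at a time gave 20 to 33 members higher and 1 to 2 lower in the astrocyte line. The 33 came without mouse 290, where 34.6% of all genes were higher and 34.3% lower. The 20 came without mouse 294, where 14.9% of all genes were higher. The microglial positive fraction had 9 to 17 higher and 3 to 5 lower against the input (all genes 18.2% to 23.8% and 18.8% to 25.9%). Against the negative fraction it had 5 to 10 and 1 to 5 (8.34% to 15.0% and 4.12% to 15.7%). The astrocyte against the microglial pulldown gave 31 to 33 and 3 to 5 (28.7% to 32.6% and 28.4% to 33.1%). Input against tissue gave 0 to 2 and 4 to 14 (9.3% to 19.4% and 8.75% to 19.4%). The difference between lines gave 28 to 29 and 3 to 3, with 22.7% to 26.4% of all genes higher. Scaling by total counts gave 22 higher and 4 lower members in the astrocyte line, where 18.3% of all genes were higher and 36.2% lower. There Gsr, Gpx4, Txnrd1, Prdx3 and Prdx4 lost their calls. Between the pulldowns, scaling by total counts moved the median of all genes by -0.31 and gave 28 higher and 6 lower members, where 21.0% and 46.2% of all genes were. Txn1, Txnrd1 and Prdx4 lost their calls in that comparison. Input against tissue gave 3 lower members in 1 fit of all 6 groups and 6 without a filter on low counts, where 9.2% and 7.76% of all genes were lower. With the mouse as replicate block, 35 members were higher in the astrocyte line, where 37.0% of all genes were higher. In the other paired comparisons the block ended 9 calls, each named above, and added Gpx3 to the members above the input. In the difference between lines it added Gstm7 (0.48) and Sod1 (0.93) to the higher and Gpx3 (-0.55) to the lower members. Low counts limit members of a few CPM, among them Ggt5, Gstt2, Gpx8, Hmox1 and Nqo1, and the cause of the changes was not tested.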
